A study of Mus musculus with 2 samples.

Results

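Among brain cells sorted as microglia, the library labelled IRF8KO held a small group of cells filled with transcripts of calprotectin and neutrophil granule proteins. Calprotectin is encoded by S100a8 and S100a9. The cells were chosen by 6 genes: Camp, Ngp, S100a8, S100a9, Lcn2 and Ltf. A barcode was taken where these genes together made up at least 2% of its UMIs (molecular tags that count captured transcripts). Barcodes under 1000 UMIs or 500 genes, or over 10% mitochondrial UMIs, had been removed. The rule took 98 of 5105 kept cells of that library, or 1.92% (exact 95% binomial interval 1.56 to 2.33), out of 8409 kept cells in the study. They are called neutrophil-like cells below, and their share is a share of sorted cells.

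The study profiled adult mouse microglia, with and without the transcription factor IRF8, by droplet single-cell RNA sequencing. Each group was 1 library, made from a pool of 3 female C57BL/6 mice aged 3 months with no treatment, whose brain cells were isolated without enzymes and sorted by flow cytometry. The labels name neither the IRF8 allele nor the sort gate, and the second sample has IRF8KO in its title but WT as its genotype, so it is called the library labelled IRF8KO. With 1 library a group no value has a replicate and no test was possible: intervals beside levels and fold changes reflect counting error alone, and the cells of a library do not replicate its condition. All differences from the other cells come from the contrast that chose the cells, so they are a description.

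Neutrophils mature in the bone marrow and load granules in sequence. The serine proteases of primary granules are made earliest, at the promyelocyte stage; lactoferrin, cathelicidin and lipocalin of specific granules follow in myelocytes and metamyelocytes; gelatinases and the receptors of the circulating cell come last. Division ends as the myelocyte matures. IRF8 favours the monocyte fate over the granulocyte fate, and C/EBPε is required for the specific granule programme.

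The genes that chose the cells lie on 3 chromosomes, and 5 of them lie in 2 stretches of the genome. Camp (cathelicidin, chromosome 9, 109847379 to 109849617, GRCm38, − strand), Ngp (neutrophilic granule protein, chromosome 9, 110419747 to 110423012, + strand) and Ltf (lactoferrin, chromosome 9, 111019271 to 111042767, + strand) span 1195389 bases. S100a8 (chromosome 3, 90668978 to 90670035, + strand) and S100a9 (chromosome 3, 90692632 to 90695721, − strand) encode the partners of calprotectin and stand 22596 bases apart. Lcn2 (lipocalin 2, which binds bacterial iron carriers) is on chromosome 2 at 32384633 to 32388252, − strand. The motif TTNNGNAAT, a form of the C/EBP site searched on both strands, was present in the promoter window of 3 of these 6 genes. The window runs from 250 bases before to 50 bases after the RefSeq start. These 3 promoters are shown because their genes helped choose the cells and because Cebpe, which encodes a factor of the C/EBP family, had 568 UMIs in them against 4 in the other cells; the sequences run from 250 to 51 bases before the start, 5′ to 3′ on the gene's strand, with the motif in capitals.

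Ngp, chr9:110419558-110419757, + strand, RefSeq GRCm38.p6: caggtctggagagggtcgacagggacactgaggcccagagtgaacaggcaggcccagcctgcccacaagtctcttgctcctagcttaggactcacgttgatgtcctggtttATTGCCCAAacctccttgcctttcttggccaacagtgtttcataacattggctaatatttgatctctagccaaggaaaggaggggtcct

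S100a9, chr3:90695772-90695971, − strand, RefSeq GRCm38.p6: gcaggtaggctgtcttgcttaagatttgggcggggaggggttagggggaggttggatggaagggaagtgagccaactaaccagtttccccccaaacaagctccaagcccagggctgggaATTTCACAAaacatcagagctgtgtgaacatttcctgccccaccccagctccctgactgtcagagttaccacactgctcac

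Ltf, chr9:111019042-111019241, + strand, RefSeq GRCm38.p6: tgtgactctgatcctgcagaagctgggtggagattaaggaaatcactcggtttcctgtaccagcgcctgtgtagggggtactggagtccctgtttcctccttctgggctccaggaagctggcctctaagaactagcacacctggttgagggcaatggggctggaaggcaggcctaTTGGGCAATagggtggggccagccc

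The motif began 139 bases before the start of Ngp, 131 before that of S100a9 and 75 before that of Ltf. Of the genes on the granule and maturation lists used below, 50 matched a RefSeq window and 8 of them (16%) held the motif. Over all 27025 genes with a window the share was 13.1%, so the lists stood near the background. A match describes the letters only. RefSeq starts can differ from the GENCODE positions given above. The Ngp sequence ends at 110419757, inside the gene as placed above from 110419747. Windows set on GENCODE starts were not searched.

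The cells stood far from every other cell on the choosing score. The 6 genes took 39% of the summed UMIs of the 98 cells, with a median of 44% per cell and a highest value of 57%. The members nearest the threshold had 2.36%, 6.82% and 19.5%; the nearest cells outside had 0.232%, 0.125% and 0.11%. In the WT library the same rule took 0 of 3304 kept cells (a count of 0 allows up to 0.0908%), and the highest WT share was 0.04%. Outside the neutrophil-like cells, 16.3% of the other kept cells of the library labelled IRF8KO held at least 1 UMI of the 6 genes, 925 UMIs in all, against 0.787% of WT cells with 26 UMIs. Apart from Ltf, those 925 UMIs fell on the genes in proportions near those inside the neutrophil-like cells. S100a9 took 43.5% of them and 40.2% inside, S100a8 35% and 33.1%, and Camp 10.8% and 13.3%. Ngp took 7.24% and 8.99%, and Lcn2 2.7% and 2.82%. Ltf was further apart, with 0.757% (7 UMIs) and 1.54%.

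**Figure D1:**
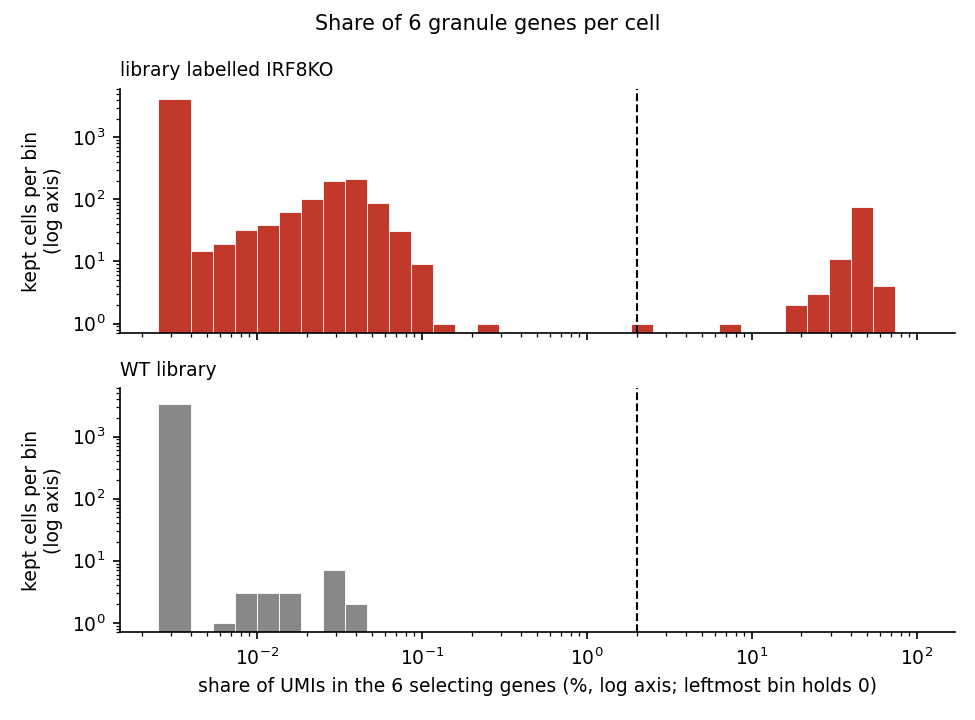
Number of kept cells (log axis) by the share of UMIs in the 6 selecting genes (percent, log axis) in the library labelled IRF8KO (top) and the WT library (bottom); the leftmost bar also holds cells at 0 and the dashed line is the 2% threshold. The 98 cells right of the line lie apart from all others, and the highest WT cell is at 0.04%.

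Some of these barcodes also carried macrophage transcripts. Of the 98, 12 held at least 10 UMIs of 12 microglia and macrophage genes, among them C1qa, Csf1r, Cx3cr1, Trem2 and Tmem119, with 25 to 1274 such UMIs and a median of 111.5. The remaining 86 held 0 to 7, with a median of 1. Per cell these genes took 0.429% to 2.67% of UMIs in the 12 barcodes and 0% to 0.124% in the 86, against a median of 2.93% in the other kept cells. The 12 barcodes included the 10 with the lowest share of the 6 genes; the lowest share among the 86 was 35.5%. The limit of 10 UMIs was chosen after the values were seen. Below, the 12 are called mixed barcodes. Values are over all 98 cells unless said otherwise, with the granule, maturation and cell cycle lists, and the described genes past the level filter that moved by over 1.5 times, also given without them; whether they hold more than 1 cell was not tested. Without them the group was 86 of 5105 cells (1.68%, interval 1.35 to 2.08).

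**Figure D2:**
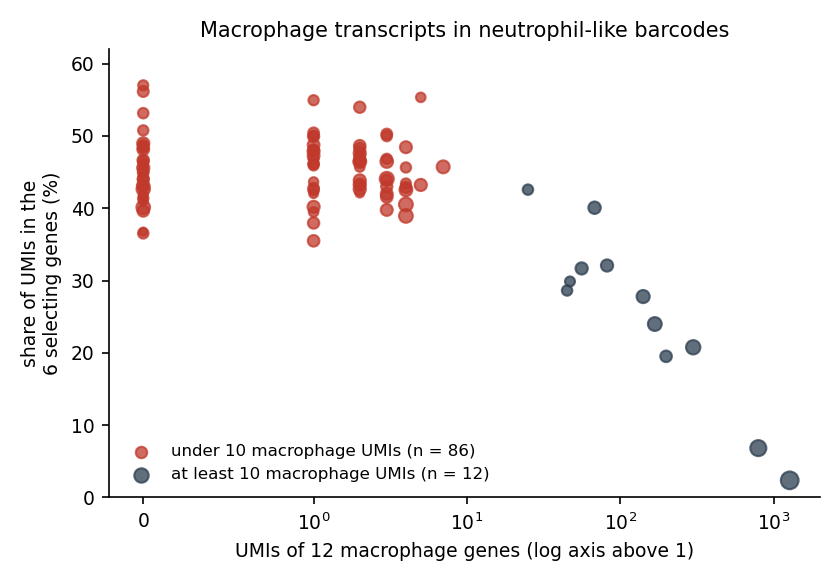
UMIs of 12 macrophage genes per barcode (log axis above 1) against the share of UMIs in the 6 selecting genes (percent) for the 98 neutrophil-like barcodes; point area grows with total UMIs. The 12 mixed barcodes, at 25 or more macrophage UMIs, reach down to 2.36%, while the 86 others stay at 35.5% or more.

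The neutrophil-like cells were deeper than their neighbours. They held 842948 UMIs in all, with a median of 7057.5 UMIs and 1727 genes per cell, against 2933 UMIs and 1379 genes in the 5007 other kept cells. Their median mitochondrial share was 1.05%, against 3.7%. The libraries shared 5 barcodes, none of them among the neutrophil-like cells.

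Levels were compared as CPM (a gene's UMIs summed over a group, scaled to a common total) for genes with a mean of at least 20 CPM over both groups; a count of 0 was set to 3 UMIs, which makes the ratio a bound. Of 5802 genes, 11.4% were at least 2-fold higher in the neutrophil-like cells and 38.8% at least 2-fold lower. Because the 6 genes fill so much of the total, the median log2 ratio of all genes was -0.67. With the 6 genes left out of the totals, that median was 0.04 and the same 5802 genes split into 21.1% higher and 19.2% lower. Medians of lists are for this reason followed by their distance from the median of all genes. Without the mixed barcodes, 13.2% of 5622 genes were higher and 44.8% lower, and the median log2 ratio of all genes was -0.82. A gene near 0 in the other cells could pass the level filter only by being at least 2-fold higher in the neutrophil-like cells. On the lists below, being counted as higher was therefore fixed by the filter for such genes.

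Primary granule genes were present, and most of their UMIs came from few cells. Of 12 listed genes 7 passed the level filter, 5 of them at least 2-fold higher and 2 lower, with a median log2 ratio of 9.95 (10.63 relative to all genes). The counts were again 5 and 2, with a median of 10.31, without the mixed barcodes. Elane, neutrophil elastase (chromosome 10, 79886247 to 79888215, + strand, GRCm38), had 132 UMIs in the neutrophil-like cells and 0 in the other cells, at least 991-fold higher. Those UMIs lay in 9 of the 98 cells, and 5 cells, with 46, 40, 13, 11 and 10 UMIs, held 90.9% of them. Prtn3, proteinase 3, had 120 UMIs in 23 cells and 6 in the other cells (log2 ratio 8.81, interval 7.65 to 10.29). Ms4a3, a membrane protein of granulocyte and monocyte progenitors, was more evenly spread, with 126 UMIs in 52 cells and 1 elsewhere (log2 11.47, interval 8.97 to 16.79).

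Other genes of the list were found in most of the cells. Serpinb1a, an inhibitor of the neutrophil serine proteases, had 641 UMIs in 95 cells against 6 in the other cells, 760 CPM against 0.316 CPM. Plac8 had 283 UMIs in 70 cells against 0. The cathepsin Ctsc and the tetraspanin Cd63, which macrophages also make, were the lower pair: Ctsc was at 62.9 CPM against 471 CPM and Cd63 at 285 CPM against 1117 CPM. Without the mixed barcodes Ctsc had 1 UMI and Cd63 was at 201 CPM. Mpo (myeloperoxidase) and Bpi, both primary granule proteins, were not detected in any kept cell of either library.

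Most specific granule genes were far higher in the neutrophil-like cells. Of 17 listed genes, none used by the selection, 16 passed the filter and 13 were at least 2-fold higher, with a median log2 ratio of 9.7 (10.37 relative to all genes). Most of the 13, such as Hp, Cd177 and Fcnb, were near 0 in the other cells and could pass only by being higher. Of the genes well expressed in the other cells, Arhgdib, Lyz2 and Cybb were higher, Cyba and Anxa3 within 2-fold and Tcn2 lower. The list took 3.59% of UMIs against 0.301% in the other cells. Chil3, a chitinase-like lectin, had 9218 UMIs in all 98 cells against 31 (log2 12.71, interval 12.2 to 13.27); among the 86 cells it ran from 7 to 281 UMIs with a median of 75. Lyz2, lysozyme, which macrophages make as well, was at 12943 CPM against 669 CPM.

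Several specific granule genes had almost no background. Hp, haptoglobin, had 930 UMIs in 96 cells against 1 (log2 14.35, interval 11.87 to 19.66). Cd177 had 625 UMIs in 96 cells against 2 (log2 12.78, interval 10.92 to 15.83). Fcnb, ficolin B, had 319 UMIs in 67 cells against 0, at least 2394-fold higher. Pglyrp1, a peptidoglycan-binding protein, had 1513 UMIs in all 98 cells against 18. Olfm4, a granule protein known to mark a subset of neutrophils, had 122 UMIs in only 13 of the 98 cells. Tcn2 was lower, at 87.8 CPM against 245 CPM, and Anxa3 (log2 -0.94) and Cyba (0.59) were within 2-fold. Without the mixed barcodes 14 of 17 genes that passed were higher and 2 lower, with a median of 9.82; Tcn2 was then at 58.2 CPM and Anxa3 past 2-fold lower (log2 -1.01). With the 6 genes left out of the totals 14 of the 16 genes were higher and 0 lower.

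UMIs of the list called gelatinase granule were few. The name is loose, since the list also holds Mmp8, a collagenase, and Padi4, an enzyme that acts on histones. Of 9 listed genes 5 passed, 3 higher (Mmp9, Mmp8 and Padi4) and 2 lower (Cd33 and Slc11a1), and the list's share of UMIs was 0.052% against 0.0686% in the other cells. Mmp9, gelatinase B, had 153 UMIs in 40 cells against 2 (log2 10.75, interval 8.87 to 13.81). Mmp8, neutrophil collagenase, had 46 UMIs in 12 cells against 3; 3 cells held 73.9% of them. Padi4, which citrullinates histones, had 53 UMIs in 39 cells against 0. Cd33 was at 172 CPM against 485 CPM and the metal transporter Slc11a1 at 30.8 CPM against 200 CPM. Without the mixed barcodes Cd33 was at 123 CPM (log2 -1.98) and Slc11a1 at 4.6 CPM (3 UMIs), with 3 genes higher and 2 lower. The list median was then 8.77, in place of 8.43 (9.11 relative to all genes) over all 98 cells. With the 6 genes left out of the totals, over all 98 cells, Cd33 was within 2-fold (log2 -0.78).

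Genes of the list called mature neutrophil were split, and Wfdc21 held 3407 of the list's 4915 UMIs. Of 25 listed genes 11 passed the filter, 9 higher and 2 lower, and 14 did not reach it. The median log2 ratio was 9.16 (9.83 relative to all genes). Without the mixed barcodes 10 of 12 that passed were higher and 2 lower, with a median of 9.27. Wfdc21 had 3407 UMIs in all 98 cells against 10 (log2 12.91). Ly6g, the surface antigen used to identify mouse neutrophils, had 200 UMIs in 67 cells against 2 (log2 11.14, interval 9.26 to 14.19). Msrb1, a methionine sulfoxide reductase, was at 548 CPM against 88.5 CPM, and Slpi, a protease inhibitor, at 208 CPM against 0.105 CPM. Retnlg had 78 UMIs in 33 cells against 2.

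Several receptors of activated or blood neutrophils, and the cytokine gene Il1b, were sparse in the same cells, but Fpr2 was not. Fpr2, a formyl peptide receptor, had 142 UMIs in 67 cells against 4 in the other cells (log2 9.64, interval 8.25 to 11.54). Cxcr2, the chemokine receptor for release into blood, had 29 UMIs in 21 cells, at 34.4 CPM against 5.48 CPM. Il1b had 3 UMIs, all in the mixed barcodes, at 3.56 CPM against 23.3 CPM. Stfa2l1 had 1 UMI, and Fpr1 had 6, at 7.12 CPM against 0.474 CPM. The granulocyte growth factor receptor Csf3r, which microglia also express, was lower, at 91.3 CPM against 238 CPM (log2 -1.38). Of its 77 UMIs 40 lay in the mixed barcodes, and without them it was at 56.7 CPM (log2 -2.07); over all 98 cells, with the 6 genes left out of the totals, it was within 2-fold (-0.67). Cd14 was lower at 34.4 CPM against 310 CPM, and had 2 UMIs (3.06 CPM) without the mixed barcodes. Genes of the Ly6, stefin and chitinase-like families have near-identical copies, so how reads were divided among copies is uncertain for Ly6g, Ly6c2, Stfa2l1 and Chil3.

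**Figure D3:**
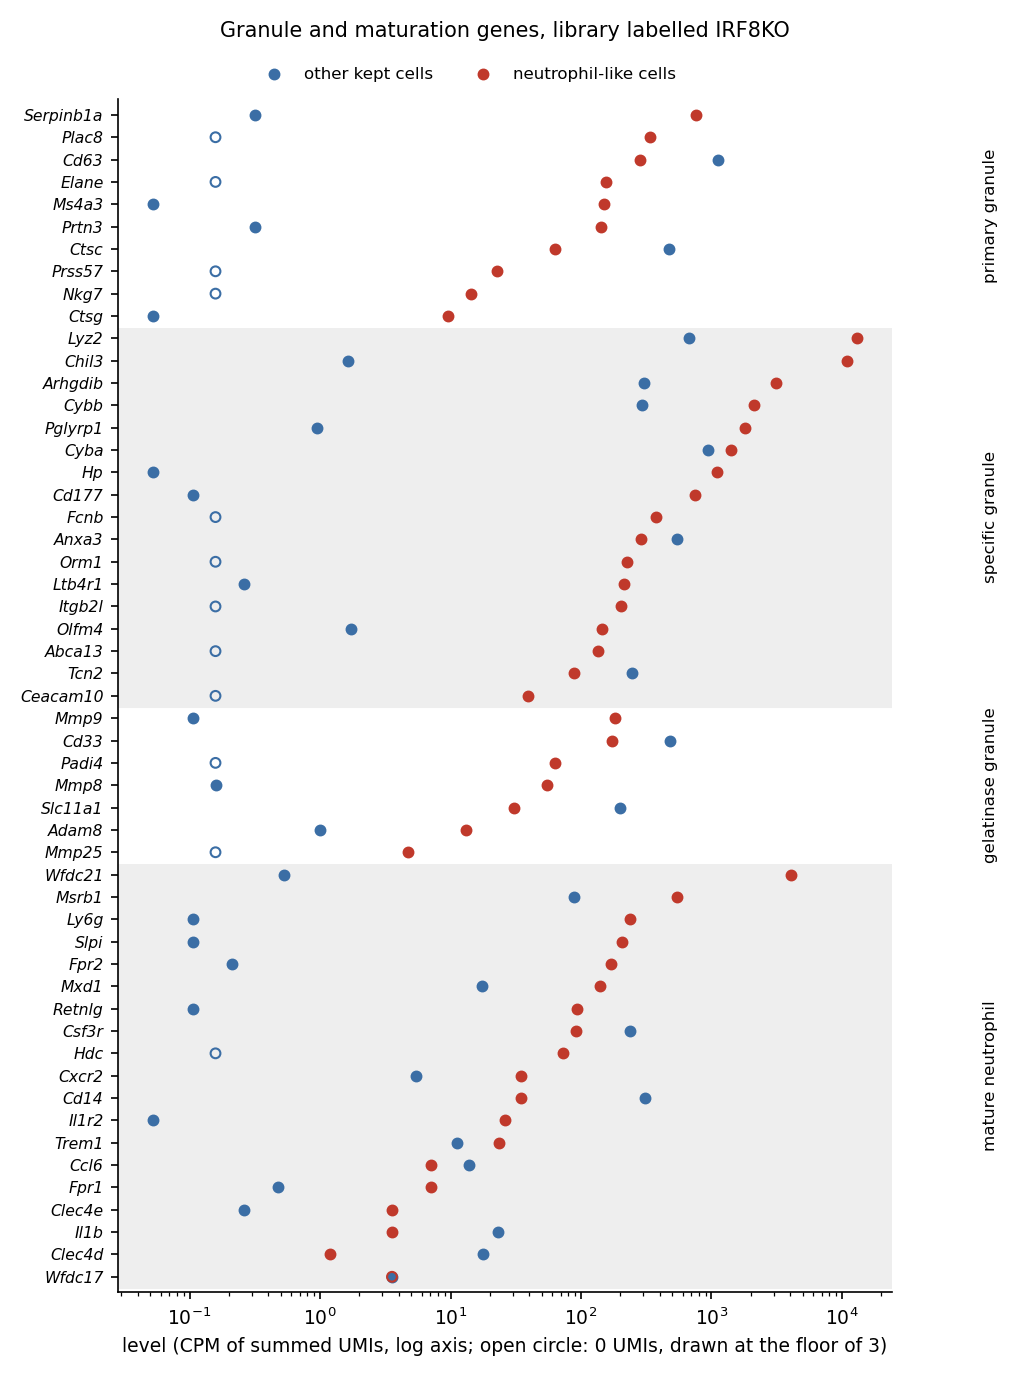
Level of each granule and maturation gene (CPM of summed UMIs, log axis) in the 98 neutrophil-like cells (red) and the 5007 other kept cells (blue) of the library labelled IRF8KO, grouped by list; genes with at most 3 UMIs in both groups, and 1 gene not reported here, are left out. Hp and Wfdc21 have the largest ratios among genes with a UMI in both groups, while Ctsc, Cd63, Cd33, Csf3r and Cd14 are lower in the neutrophil-like cells.

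Genes of the phagocyte oxidase, the complex that makes superoxide, were higher or within 2-fold. Of 8 listed genes 7 passed, and 3 were at least 2-fold higher: Cybb, the catalytic subunit, at 2121 CPM against 293 CPM; Rac2, the blood-cell GTPase of the complex, at 1147 CPM against 101 CPM; and Ncf4, a cytosolic subunit, at 321 CPM against 45.6 CPM. Cyba and Ncf1 lay within 2-fold at log2 ratios of 0.59 and 0.7, as did Rac1 at -0.22. With the 6 genes left out of the totals 6 of the 7 were at least 2-fold higher, Rac1 being the exception.

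Among transcription factors, Cebpe (chromosome 14, 54710360 to 54712174, − strand, GRCm38) had the highest ratio. It had 568 UMIs in 95 of the 98 cells against 4 UMIs in the 5007 others, 674 CPM against 0.211 CPM (log2 11.64, interval 10.28 to 13.52). Among the 86 cells it ran from 0 to 17 UMIs with a median of 5. Gfi1, a repressor needed for granulocyte maturation, had 29 UMIs in 24 cells against 0, and Klf5 had 60 UMIs in 38 cells against 0. Cebpd was at 350 CPM against 139 CPM. Spi1 (PU.1), shared by granulocytes and macrophages, was at 344 CPM against 315 CPM. Over the whole list 6 of 17 genes that passed were higher and 8 lower, with a median of -0.62, or 0.06 relative to all genes. The counts were 7 and 8 of 18, with a median of -0.68, without the mixed barcodes.

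Irf8 (chromosome 8, 120736358 to 120756694, + strand, GRCm38) had 104 UMIs in the neutrophil-like barcodes, all of them in the 12 mixed barcodes. None of the other 86 cells held a UMI, against 669 CPM in the 5007 other kept cells of the same library and 794 CPM in WT cells. Counts from the library as deposited do not check the knockout, since the labels name no allele and UMIs outside a deleted part would remain. Of the UMIs of Zeb2 and Cebpa, 115 of 117 and 22 of 25 lay in the mixed barcodes.

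Genes of earlier progenitors were low. Of 11 listed genes 3 passed and all 3 were lower (Cd34, Sox4 and Cd48); 27 of the 28 Cd34 UMIs lay in the mixed barcodes, and without those Sox4 had 0 UMIs and Cd48 had 2. Kit, the stem cell factor receptor, had 13 UMIs in 12 cells, all among the 86, and 0 in the other kept cells. Myb, a factor of dividing progenitors, was at 46.3 CPM against 12 CPM.

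Most neutrophil-like cells carried transcripts of the cell cycle. Of 32 listed G2 and M phase genes 27 passed the filter and all 27 were at least 2-fold higher, with a median log2 ratio of 5.87 (6.54 relative to all genes). The whole list summed to 119 CPM in the other cells. Most of its genes were so low there that they could pass only by being higher, so the filter fixed most of this count. When the mixed barcodes were left out 29 passed, all of them higher, with a median of 6.34. Mki67, the proliferation antigen, had 399 UMIs in 64 cells against 96 in the 5007 others (log2 6.55). Birc5 (survivin) had 216 UMIs in 60 cells against 50, Cenpa (the centromeric histone) 224 in 59 cells against 363, and Cks2 285 in 70 cells against 249. Among 28 S phase genes 11 passed and 8 were at least 2-fold higher, with a median of 1.75 (2.42 relative to all genes); without the mixed barcodes 10 of 11 were higher and the median was 1.90. Rrm2, a ribonucleotide reductase subunit, stood out at 141 UMIs in 27 cells against 7 (log2 8.83), while Slbp (0.94), Pcna (0.92) and Mcm3 (0.69) were within 2-fold. All 11 were at least 2-fold higher with the 6 genes left out of the totals. On a list of 12 chromatin and tubulin genes of dividing cells, 9 were higher, among them Hmgb2 at 3445 CPM against 108 CPM, H2afz at 2414 CPM against 253 CPM and Hmgn2 at 972 CPM against 24.9 CPM.

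Depth was then made equal by drawing 2000 UMIs from every cell with at least that many. At least 5 UMIs of the 60 S, G2 and M phase genes were then found in 59 of 97 neutrophil-like cells (60.8%, exact interval 50.4 to 70.6). The share was 54 of 85 (63.5%, 52.4 to 73.7) without the mixed barcodes, 35 of 4509 (0.776%) among the other kept cells and 17 of 3019 (0.563%) in WT. The draw left out 1 neutrophil-like cell, 498 other cells and 285 WT cells as too shallow. Without the draw the shares were 66.3%, 5.01% in the other cells and 9.65% in WT. The score had few values near the limit: 6 of the 85 cells had 3 to 6 UMIs. Of the 54 cells past the limit, 19 had at least 3 drawn UMIs of S phase genes.

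**Figure D4:**
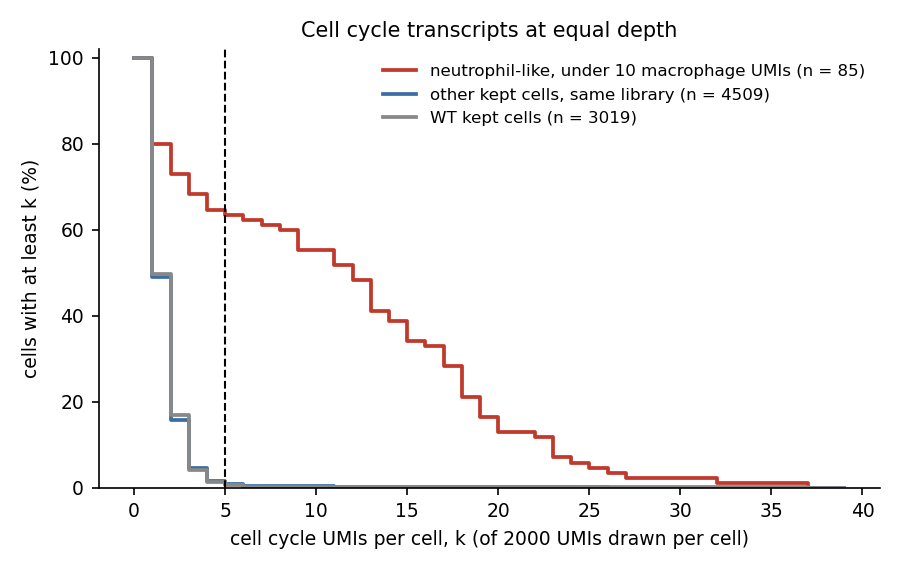
Share of cells (percent) with at least k UMIs of 60 cell cycle genes when 2000 UMIs are drawn from each cell, for 85 neutrophil-like cells (red), 4509 other kept cells of the same library (blue) and 3019 WT cells (grey); the dashed line marks 5 UMIs. At that line the red curve stands at 63.5% and the others at 0.776% and 0.563%.

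Cell cycle transcripts divided the 85 unmixed cells into 2 ranges of this score, which are not cell types: 54 cycle-high cells and 31 cycle-low cells. The cycle-high cells were deeper, with a median of 8762 UMIs and 2033 genes against 5150 UMIs and 1378 genes. Mki67 was found in all 54 cycle-high cells and in 3 of the 31 cycle-low cells, a difference the score makes. Of 4095 genes tested between the ranges, 11.0% were at least 2-fold higher in the cycle-low cells and 16.1% at least 2-fold lower.

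Several genes of the gelatinase granule and mature neutrophil lists were higher in the cycle-low cells. Of the gelatinase granule list 4 of 5 genes that passed were at least 2-fold higher and 0 lower. Mmp8 and Adam8 were at 12.4 CPM and 4.12 CPM (2 UMIs, against 7) in the cycle-high cells. They could pass only by being higher in the cycle-low cells, so the filter fixed this for them. Mmp9 was at 593 CPM against 111 CPM (log2 2.41, interval 1.92 to 2.92) and was found in 22 of 31 cycle-low and 17 of 54 cycle-high cells. Of the mature list 6 of 13 that passed were higher and 0 lower: Ly6g at 587 CPM against 161 CPM (1.87, 1.42 to 2.32), Fpr2, a formyl peptide receptor, at 393 against 109 CPM (1.85, 1.3 to 2.4), Retnlg (1.95), Hdc (1.29), Mxd1 (1.22) and Cxcr2 (1.14, -0.07 to 2.31). Wfdc21, also on the mature list, was within 2-fold, at 6327 against 3949 CPM, and was found in all cells of both ranges. On the specific granule list 4 of 17 were higher (Olfm4, Abca13, Tcn2 and Ceacam10), 1 lower (Fcnb) and 12 within 2-fold. Olfm4 (1.79) was found in 5 of 31 cycle-low and 7 of 54 cycle-high cells, so its value rests on few cells.

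On the primary granule list 0 of 7 genes that passed were at least 2-fold higher in the cycle-low cells, 2 were lower (Ms4a3 and Prss57) and 5 were within 2-fold. Ms4a3 was at 96.8 CPM in cycle-low against 204 CPM in cycle-high cells (log2 -1.07, interval -1.94 to -0.30). Prss57 had 1 UMI against 18 (log2 -2.62, interval -8.00 to 0.05). At 6.05 CPM in the cycle-low cells, Prss57 could pass the filter only by being lower there. Fcnb, of the specific granule list, was at 224 CPM against 509 CPM (-1.18, -1.72 to -0.68). Of 12 transcription factor genes that passed 4 were lower (Cebpb, Id1, Myb and Gfi1), 1 higher (Xbp1) and 7 within 2-fold. Elane was at 248 CPM in the cycle-low and 185 CPM in the cycle-high cells (0.42, -0.15 to 0.97). In the cycle-low cells 40 of its 41 UMIs lay in 1 cell, which had 28 cell cycle UMIs before the draw. Cebpe was at 714 CPM in the cycle-low and 776 CPM in the cycle-high cells, and Hp at 1246 CPM and 1295 CPM. The part of the lower depth of the cycle-low cells in these differences was not tested.

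Among the genes that chose the cells, Ltf and Camp differed most between the ranges. The median Ltf share was 0.987% of UMIs in the cycle-low cells (range 0.21 to 1.32) and 0.632% in the cycle-high cells (0.211 to 1.18). Camp ran the opposite way, with medians of 4.77% and 6.5%. The ranges overlapped widely for both genes. Across the 86 unmixed cells, the shares of Ltf and of cell cycle genes had a Pearson r of -0.48 and a Spearman rho of -0.50. The cells share 1 library, and depth moved with both measures: r with total UMIs was -0.45 for Ltf and 0.49 for the cell cycle share.

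Most UMIs of the primary granule proteases and of Mmp8 lay in few cells. At least 10 UMIs of 5 primary granule genes (Elane, Prtn3, Ms4a3, Prss57 and Ctsg) were found in 9 unmixed cells, 8 of them cycle-high, which held 72.8% of the UMIs of these genes. Their Ltf share had a median of 0.405% and their total UMIs a median of 10950. The cell with most Elane UMIs had 46 of Elane, 33 of Prtn3 and 11 of Ms4a3, with 110 cell cycle UMIs, and an Ltf share of 0.212%. The same cell, with 17422 UMIs in all, also held 2 Mmp8, 4 Mmp9, 2 Retnlg and 1 Cxcr2 UMIs. In the set of 86, 3 other cells had at least 10 Mmp8 UMIs (12, 12 and 10). They held 0 cell cycle UMIs and 0 UMIs of the 5 primary granule genes, Ltf shares of 0.956%, 1.26% and 0.885%, Camp shares of 1.87%, 1.83% and 3.59%, and only 2302, 2788 and 2146 UMIs in all. Without these 3 cells, Mmp8 in the cycle-low cells was at 38 CPM in place of 242 CPM, Retnlg at 164 CPM in place of 254 CPM and Mmp9 at 550 CPM in place of 593 CPM. Mmp8, Retnlg and Mmp9 stayed above the 12.4, 65.9 and 111 CPM of the cycle-high cells. Of the genes that then passed, 3 of 4 gelatinase and 6 of 13 mature genes were at least 2-fold higher. Mmp8 could again pass the filter only by being higher in the cycle-low cells.

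**Figure D5:**
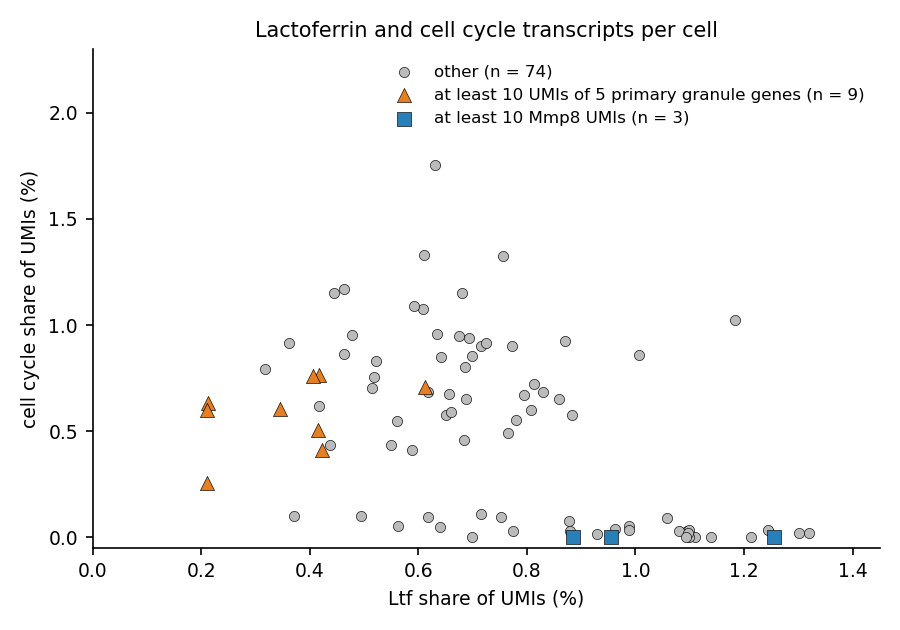
Share of UMIs in Ltf (percent) against the share in 60 cell cycle genes (percent) for the 86 neutrophil-like cells without the mixed barcodes; triangles are the 9 cells with at least 10 UMIs of 5 primary granule genes and squares the 3 cells with at least 10 Mmp8 UMIs. The triangles lie at a low Ltf share, with a median of 0.405%, and the squares at 0 cell cycle UMIs.

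Microglia and macrophage genes were lower throughout. All 10 microglia genes and all 13 general macrophage genes that passed were at least 2-fold lower in the neutrophil-like cells, and so were 4 of 4 border macrophage genes. Apoe, the main apolipoprotein of brain macrophages, was at 10508 CPM against 88321 CPM, and 96.5% of its UMIs lay in the mixed barcodes. Without those barcodes, the microglia genes stood at a median of 0.219% of their level in the other kept cells, with Tmem119, P2ry12 and Sparc at 0 UMIs. Of the macrophage genes, Cd68, Aif1 and Mertk were at 0 UMIs. Apoe was then at 470 CPM, with at least 1 UMI in 85 of 86 cells. Fcer1g and Tyrobp, signalling adaptors that granulocytes also use, were at 1089 CPM and 1307 CPM against 3101 CPM and 3859 CPM, and within 2-fold for all 98 cells with the 6 genes left out of the totals (-0.52 and -0.64).

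Genes outside the selection were also ranked by ratio. Among genes with at least 200 CPM in either group, with genes at 0 in the other cells ranked at their bound, the 12 highest ratios belonged to Hp, Wfdc21, Cd177, Chil3, Cd24a, Ly6c2, Cebpe, Serpinb1a, Fcnb, Ly6g, Plac8 and Mcemp1. The order rests on the floor of 3 UMIs: Orm1 (189 UMIs) and Itgb2l (172 UMIs), also at 0 in the other cells, are among the genes whose place it sets. Cd24a, a surface protein of immature granulocytes, had 303 UMIs in 87 cells against 2, and Mcemp1, a membrane protein of myeloid cells, 274 UMIs in 87 cells against 0. The 8 lowest belonged to Cd68, Pf4, Abi3, C3ar1, Gngt2, Ccnd1, Siglech and Ms4a6d. Cd68, the lysosomal macrophage marker, had 16 UMIs in 5 cells against 298 CPM, and Ccnd1, cyclin D1, 19 UMIs in 5 cells against 231 CPM; neither had a UMI among the 86 cells.

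Monocyte markers were divided between genes that granulocytes share and genes they do not. All 4 of 10 listed genes that passed were higher, among them Chil3, Plac8 and Ly6c2. Ly6c2 had 435 UMIs in 94 cells against 0. Ccr2, the receptor of classical monocytes, had 7 UMIs in 3 cells and 1 UMI without the mixed barcodes, Vcan had 0, and Fn1 had 4. Ly6c1 and Ms4a4c had 1 UMI each.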

How the data were processed

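The deposited matrices hold UMI counts per gene and barcode for 2 libraries, written by the authors with Cell Ranger 3.1 on mm10, per the submitters' processing notes, which also name bcl2fastq and Scanpy; alignment and cell-calling settings were not stated there. The labels' protocols also name a full-length kit; the values have the form of droplet counts. No doublet caller was run: barcodes with macrophage UMIs were set aside instead. UMIs were summed over cells and scaled to CPM (Python 3.11.15, numpy 2.4.6, scipy 1.17.1, pandas 2.3.3). Intervals are exact at 95%: Poisson for levels, conditional binomial for ratios, Clopper-Pearson for shares; a count of 0 was set to 3 over the group. The script was tested on simulated data. The cells and gene lists were chosen with earlier results of these data known. Named genes are the 6 selecting genes, Irf8, the 4 members of each list with the highest CPM, defining markers at 0, and the 12 highest and 8 lowest ratios at 200 CPM or more; other genes were chosen after their values were seen. Alternatives covered the thresholds, scaling, weighting, comparison group, level filter and depth draw. Positions are GENCODE M21 on GRCm38. Some genes of the lists are counted but not reported here by name.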

Additional observations from a re-analysis of the deposited data

How the results depend on the processing

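With 1 library a group nothing here has replicate error, and depth limits single genes of a few UMIs. The share of neutrophil-like cells lay at 1.68% to 1.97% under all alternatives except a limit of 5% mitochondrial UMIs, which removed other cells and gave 2.48%. Of the alternatives for genes at least 2-fold higher and lower, totals without the 6 selecting genes gave 1432 and 1194 of 6472 genes tested (1227 and 1112 of the original 5802), a mean of 50 CPM 359 and 1080 of 2852, and no level filter 6036 and 4745 of 16182, in place of 661 and 2252 of 5802. The gelatinase granule median of 8.43 became 3.21 without the 25% of cells richest in macrophage UMIs, 6.08 with no filter and, with 3 genes left at 50 CPM, -1.49. With no filter the primary granule median was 8.15 and the mature median 3.37; at 50 CPM the mature, S phase and G2 and M phase medians were 6.32, 3.41 and 6.54. Totals without the 6 genes gave 2.46 for S phase and 6.79 for G2 and M phase, and WT cells as comparison gave 6.48 for the latter. The causes were not tested beyond the genes lost to a filter. Against WT cells, 5 genes that were lower became higher: Apoe (4.46), Itga4 (3.73), Mrc1 (3.36), Ms4a7 (8.85) and Pf4 (7.73). Over 166 listed genes and 9 alternatives, 997 of 1494 values stayed within their counting interval and 492 moved beyond it. No paired analysis was possible because each group is 1 library.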

Other observations

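Genes that hold granulocytes in the marrow or let them leave it were mixed. Of 10 listed genes 8 passed the level filter, 3 higher and 3 lower. Cxcr4, the retention receptor, had 92 UMIs in 58 neutrophil-like cells, 109 CPM against 9.27 CPM in the other kept cells. Itgam (CD11b), which microglia also carry, was at 410 CPM against 241 CPM and Itgb2 at 259 CPM against 231 CPM. Itga4 and Selplg were lower, at 70 CPM against 203 CPM and 144 CPM against 974 CPM. Without the 12 barcodes with macrophage UMIs both were at 46 CPM. Among inhibitors of the cell cycle, Cdkn2d (p19) was at 157 CPM against 14.2 CPM, and the other 6 that passed were within 2-fold or lower.

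Genes of other blood lineages were near 0 in the neutrophil-like cells. The T and NK list had UMIs of Cd3d (8) and Nkg7 (12) only, with the other 11 genes at 0. Of the mast cell and basophil list Ms4a2 had 3 UMIs and the other 7 genes 0. Ear2, on the eosinophil list, had 58 UMIs in 35 cells against 1 in the other kept cells, while Prg2, Prg3 and Epx had 0. All 8 erythroid genes had 0 UMIs, and the B cell gene Ighm had 28 UMIs in 20 cells at 33.2 CPM against 21.9 CPM.

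A barcode left out by the filters also met the share of 2% in the library labelled IRF8KO, and 0 of the 200 barcodes left out of the WT library did.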
